A study of Mus musculus with 41 samples.

Results

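The genes examined were 34 genes of the response to low oxygen and of glycolysis, taken by symbol from the 47480 symbols of the deposited expression table. They comprise 2 HIF alpha subunits, 2 prolyl hydroxylases, 3 secreted or pH-regulating HIF targets, 5 other HIF targets, 4 genes of sugar and lactate transport or pyruvate use, 16 glycolytic enzymes and 2 PFKFB enzymes. RNA had been sequenced from 41 mouse mammary tumors, 1 library each, of which 28 were Plk2-/-; p53-/- and 13 were p53-/-. All were labelled as p53-null Balb/c tumors, and all had grown orthotopically, without treatment, in syngeneic hosts that keep intact Plk2. The Plk2-/-; p53-/- tumors arose from mammary epithelial cells placed in cleared fat pads, and pieces were kept for later implantation. Of the 28, 7 bear the numbers of primary tumors. The labels do not say which of the 41 are related, so p-values measure the spread between these tumors only. A tumor is named here by genotype and number, such as PLK2null-1973 or p53null-10151, with T11 being a p53-/- tumor. PLK2null-732, PLK2null-733, PLK2null-743 and T11 were taken as claudin-low, a class poor in epithelial junction genes. The study names PLK2null-743 and T11 as such, and its clustering of these libraries with others puts 3 Plk2-/-; p53-/- tumors in that class. The class therefore rests on the same RNA, and p-values for it are not independent of how it was made. The labels give the age of no tumor or host.

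Every value is a deposited signal, the estimated count of a gene divided by the upper quartile of its tumor, scaled so that this quartile, over nonzero values, equals 1000. The size of the smallest steps between values put 29409609 to 70868124 fragments on genes, with a median of 39053966 in Plk2-/-; p53-/- and 58042777 in p53-/- tumors. A read was worth 0.388 to 0.817 of the signal, and all 34 genes lay above 3 reads in all 41 tumors. Plk2 itself was 298 ± 149 (SD, n = 28) in Plk2-/-; p53-/- and 3436 ± 2104 (SD, n = 13) in p53-/- tumors. The library labelled p53null-7435 had a Plk2 value of 186, inside the Plk2-/-; p53-/- range of 36.6 to 553. Trp53 signal ran from 349 to 5035 (median, 2454) over the 41 tumors, and the labels do not say which part of the gene the null allele lacks, so it does not check that label. All 13 p53-/- titles, and no Plk2-/-; p53-/- title, carry a shared series name, so library batch and genotype cannot be told apart. The tissue was bulk tumor, in which fewer cells of a type and less RNA per cell cannot be told apart.

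Cells sense oxygen through the prolyl hydroxylases Egln1 and Egln3, which use it to mark the HIF alpha proteins Hif1a and Epas1 for destruction. When oxygen is short the alpha subunit persists, pairs with Arnt and binds DNA at the core letters ACGTG or GCGTG near genes of angiogenesis, pH control and sugar use. HIF1 raises most enzymes that turn glucose into lactate, and many tumors keep that pathway active even in oxygen. Control of the HIF alpha subunits lies largely in the stability of the protein, which RNA does not report.

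The promoters of 3 of these genes show the letters to which HIF binds, and were chosen because Pgk1 and Ldha differed most by adjusted p between the genotypes and Ankrd37 was the HIF target with the clearest claudin-low difference. They are the 250 bases before a RefSeq start site on GRCm38.p6, printed 5′ to 3′ on the strand of the gene. Capitals mark ACGTG or GCGTG read on either strand, so the reverse strand appears as CACGT or CACGC. Pgk1 is at chrX:106186850-106187099 on the plus strand, Ldha at chr7:46845554-46845803 on the plus strand, and Ankrd37 at chr8:45999851-46000100 on the minus strand.
Pgk1: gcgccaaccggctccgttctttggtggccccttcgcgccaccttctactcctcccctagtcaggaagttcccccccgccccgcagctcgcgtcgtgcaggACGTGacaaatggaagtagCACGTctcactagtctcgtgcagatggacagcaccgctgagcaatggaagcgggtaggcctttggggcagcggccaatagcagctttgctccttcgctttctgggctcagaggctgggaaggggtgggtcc
Ldha: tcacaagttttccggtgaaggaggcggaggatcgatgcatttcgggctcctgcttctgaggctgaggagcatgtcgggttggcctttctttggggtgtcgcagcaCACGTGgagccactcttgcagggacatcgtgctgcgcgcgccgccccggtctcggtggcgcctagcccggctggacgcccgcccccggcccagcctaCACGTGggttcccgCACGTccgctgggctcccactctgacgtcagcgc
Ankrd37: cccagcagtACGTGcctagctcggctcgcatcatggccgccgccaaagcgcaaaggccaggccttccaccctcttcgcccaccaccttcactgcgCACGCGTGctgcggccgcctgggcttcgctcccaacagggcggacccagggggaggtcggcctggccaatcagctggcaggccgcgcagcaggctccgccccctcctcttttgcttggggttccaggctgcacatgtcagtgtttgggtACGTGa
Pgk1 held 2 matches, both ACGTG. The 5 matches of Ldha were all ACGTG, some of them the same palindrome read on both strands. A second Ldha start site in the table held no ACGTG and 1 GCGTG, and the sites shown are those with the most matches. Ankrd37 held 2 of ACGTG and 2 of GCGTG. Of the 34 genes, 31 had a promoter in the RefSeq table, and Ndrg1, Epas1 and Slc2a3 did not. Of these 31, 28 (90.3%) held ACGTG or GCGTG at one start site or another, against 41.5% of 27025 genes with a promoter in the table. ACGTG alone was found in 61.3% of the 31 and in 18.5% of the 27025. The 31 were picked as hypoxia and glycolysis genes, and the 27025 were not matched to them in expression or base content. The contrast is therefore descriptive. A match is a description of letters, and binding was not measured.

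Levels per kilobase of transcript set the enzymes of lower glycolysis far above the sensors. The median signal per kb over the 41 tumors was 22922 for Pkm, 15441 for Aldoa, 11306 for Ldha and 10682 for Eno1. Hif1a stood at 588 per kb and Epas1 at 218 per kb. The lowest medians were 119 for Car9, 71.6 for Pfkfb4 and 39.3 for the neuronal-type glucose transporter Slc2a3. Spread over tumors ran the other way for several low genes. Car9, a carbonic anhydrase of the cell surface that helps set pH, differed 1023-fold between its lowest and highest tumor, and its log2 values had an SD of 1.90. Aldoc, the brain-type aldolase, had the widest log2 SD, 2.25. Pkm, Eno1 and other abundant enzymes varied less, with the highest Eno1 value 4.42-fold above the lowest, and Pfkfb4 had the narrowest log2 SD, 0.49. The median log2 SD was 0.87 over the 34 genes and 0.76 over the 17208 genes tested.

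Several tumors were high or low in many of the genes together. In p53null-10151, 23 of the 34 genes were among the 5 highest of the 41 tumors and 11 were the highest, whereas 15.7% of all tested genes were among its top 5 and 4.55% were its highest. T11 had 20 genes among the 5 highest, against 15.2% of all tested genes. PLK2null-1973 had 13, against 12.6%. At the other end, PLK2null-7748 had 19 genes among the 5 lowest, against 13.8% of all tested genes, and PLK2null-7764 and p53null-7435 had 16 each, against 6.67% and 6.49%. High and low tumors thus occurred in both genotypes.

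**Figure D1:**
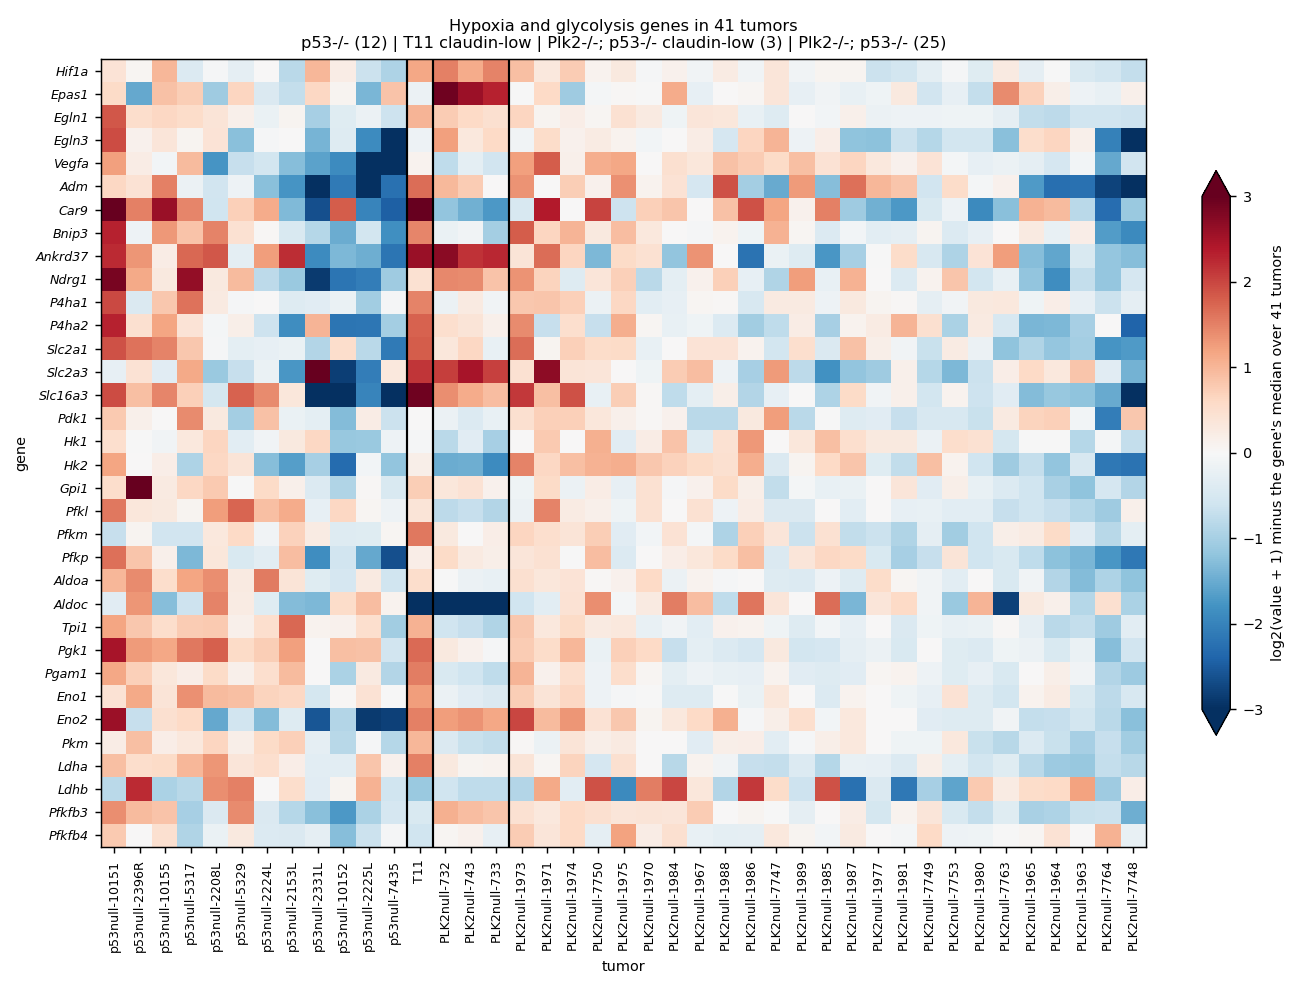
Heat map of the 34 genes (one line each, by role) over the 41 tumors (one column each, by genotype and claudin-low class), colored by log2(signal + 1) minus the median of that gene over the tumors. The columns of p53null-10151 and T11 are high across much of the map, and Aldoc is low in the 4 claudin-low tumors.

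The genotypes were compared to see which of the genes differ where Plk2 is lost beside p53. Plk2-/-; p53-/- tumors had lower RNA for 8 of the 16 glycolytic enzymes and higher RNA for 1. The HIF alpha subunits, Egln1, Egln3 and most genes listed as HIF targets did not pass the test. The enzymes are listed apart from those targets, though HIF1 raises most of them as well. All 7 of the 34 genes with the highest level per kb, namely Pkm, Aldoa, Ldha, Eno1, Tpi1, Pgam1 and Pgk1, were among those that fell. Gapdh, the enzyme before Pgk1, was not among the 34 and did not pass (-0.15 ± 0.23, limma adjusted p = 0.640), and is named here after its value was seen. Vegfa, the growth factor for blood vessels, rose 2.16-fold. The test was limma on log2(signal + 1) over 17208 genes with a mean signal of at least 10, which understates changes of low genes, with Benjamini-Hochberg adjustment over all of them and a threshold of 0.05. Of the 34 genes 11 were called, 3 higher and 8 lower, or 32.4%, whereas 39.5% of all tested genes were called, 24.3% higher and 15.3% lower. The share called was thus no larger than the background, and the share lower was 23.5%. The genotypes overlapped in all 34 genes, as they did for most others: 1.35% of all tested genes did not overlap, 1.12% higher and 0.227% lower in Plk2-/-; p53-/-. The median log2 difference was -0.17 over the 34 genes and 0.10 over all tested genes. Rescaling with trimmed-mean (TMM) factors moved the median of all genes to -0.01 and that of the 34 to -0.28. The calls over all genes were 4175 higher and 2627 lower as deposited, 3420 and 3446 with TMM, and 3425 and 3325 after quantile normalization.

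**Figure D2:**
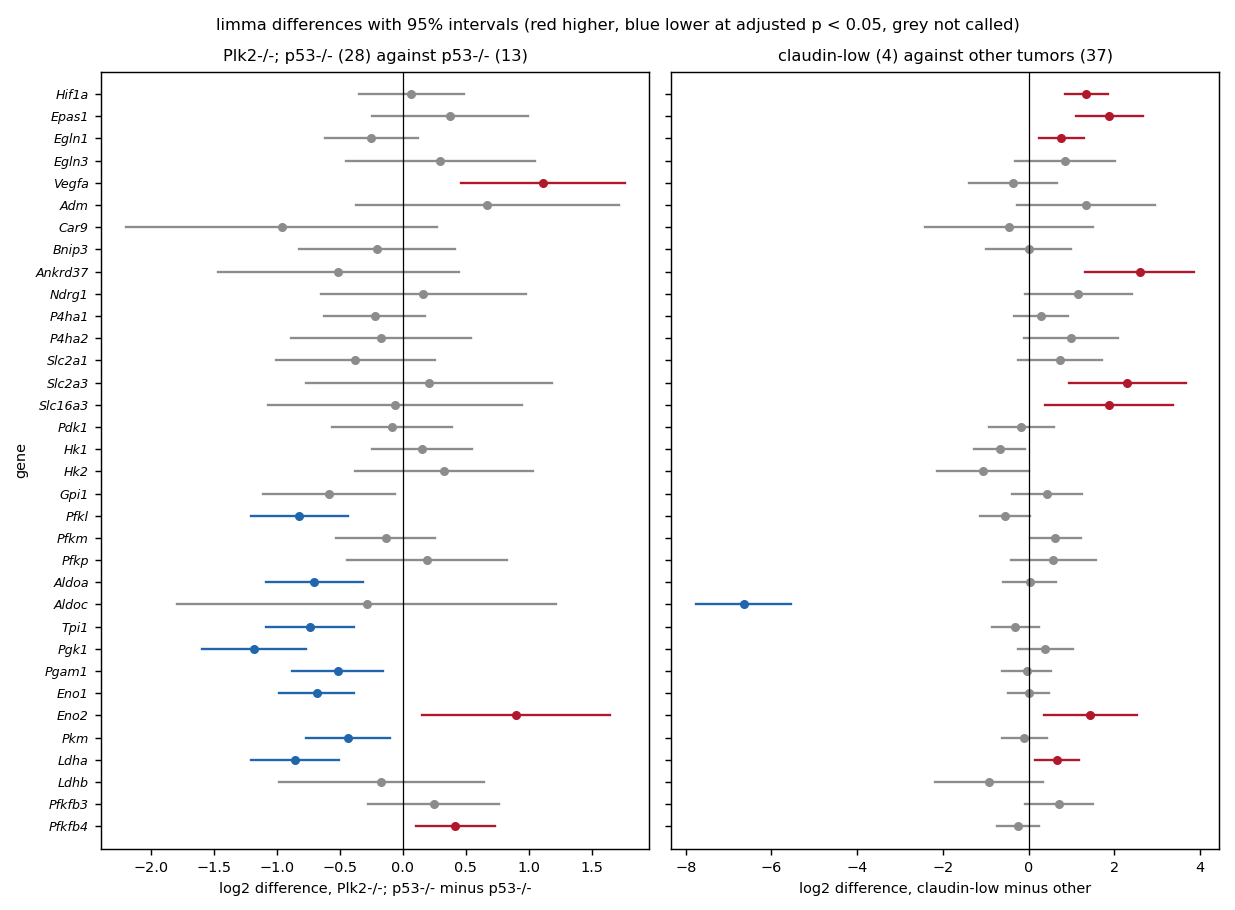
Log2 difference (x axis) of each of the 34 genes (y axis) with its 95% confidence interval, for Plk2-/-; p53-/- minus p53-/- tumors and for the 4 claudin-low minus the 37 other tumors. Pgk1 is lowest in the genotype panel at -1.18, and Aldoc lies far left of all others in the claudin-low panel at -6.65.

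Pgk1, which makes the first ATP of glycolysis, ran from 4767 to 23109 (median, 10037) in the 28 Plk2-/-; p53-/- tumors and from 7819 to 64449 (median, 25767) in the 13 p53-/- tumors. In 7 of the 13 p53-/- tumors it was above the highest Plk2-/-; p53-/- tumor, and no Plk2-/-; p53-/- tumor reached the p53-/- median, though the ranges overlap. The log2 difference was -1.18 ± 0.20 (SE), 2.26-fold lower, with a 95% interval of -1.59 to -0.77 and a limma adjusted p of 1.07e-05. Ldha, the subunit of lactate dehydrogenase that favors making lactate, ran from 9285 to 32364 (median, 16375) against 16468 to 58351 (median, 29800). All 13 p53-/- tumors lay above the Plk2-/-; p53-/- median, and 14 of the 28 Plk2-/-; p53-/- tumors lay below the lowest p53-/- tumor. Its difference was -0.86 ± 0.17 (limma adjusted p = 9.84e-05). Permutation of the genotype labels with 100000 resamples, 2-sided, gave unadjusted p = 4e-05 for Pgk1 and 6e-05 for Ldha.

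Pfkl, the liver-type phosphofructokinase at the committed step, was 3330 to 19328 (median, 5893) in Plk2-/-; p53-/- and 5831 to 23092 (median, 9001) in p53-/- tumors. The groups overlap, but 14 Plk2-/-; p53-/- tumors were below every p53-/- tumor and 2 p53-/- tumors exceeded every Plk2-/-; p53-/- tumor. Pfkl fell by 0.82 ± 0.19 on the log2 scale (limma adjusted p = 0.000584). Of the phosphofructokinase RNA per kb, Pfkl made up a median of 55.6% in Plk2-/-; p53-/- and 74.4% in p53-/- tumors, while its sister genes Pfkm and Pfkp did not pass the test, at -0.14 ± 0.20 and 0.19 ± 0.31.

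Eno1, the common enolase, was 12594 to 35896 (median, 19711) against 14961 to 55687 (median, 33523). Tpi1, triose phosphate isomerase, was 7340 to 26855 (median, 13348) against 7446 to 50535 (median, 22348). For each of them 12 of 13 p53-/- tumors exceeded the Plk2-/-; p53-/- median. The log2 differences were -0.68 ± 0.15 for Eno1 and -0.74 ± 0.17 for Tpi1, with limma adjusted p of 0.000253 and 0.000665. Aldoa, the muscle-type aldolase that most tumors use, was 9696 to 36080 (median, 22175) against 15811 to 70747 (median, 34310). It fell by 0.70 ± 0.19 on the log2 scale (limma adjusted p = 0.00300), and 5 p53-/- tumors were above all Plk2-/-; p53-/- tumors.

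Pgam1, phosphoglycerate mutase, was 6522 to 28011 (median, 12091) against 7187 to 39796 (median, 17485), a log2 difference of -0.52 ± 0.18 (limma adjusted p = 0.0194). Pkm, the pyruvate kinase of most tissues, was 27084 to 73352 (median, 50761) against 30631 to 111686 (median, 64922), a difference of -0.44 ± 0.16 (limma adjusted p = 0.0320). These were the smallest of the 8 and overlapped widely. Neither passed without the 4 claudin-low tumors, where the log2 differences were -0.36 and -0.32 (limma adjusted p = 0.0947 and 0.121), nor after quantile normalization.

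**Figure D3:**
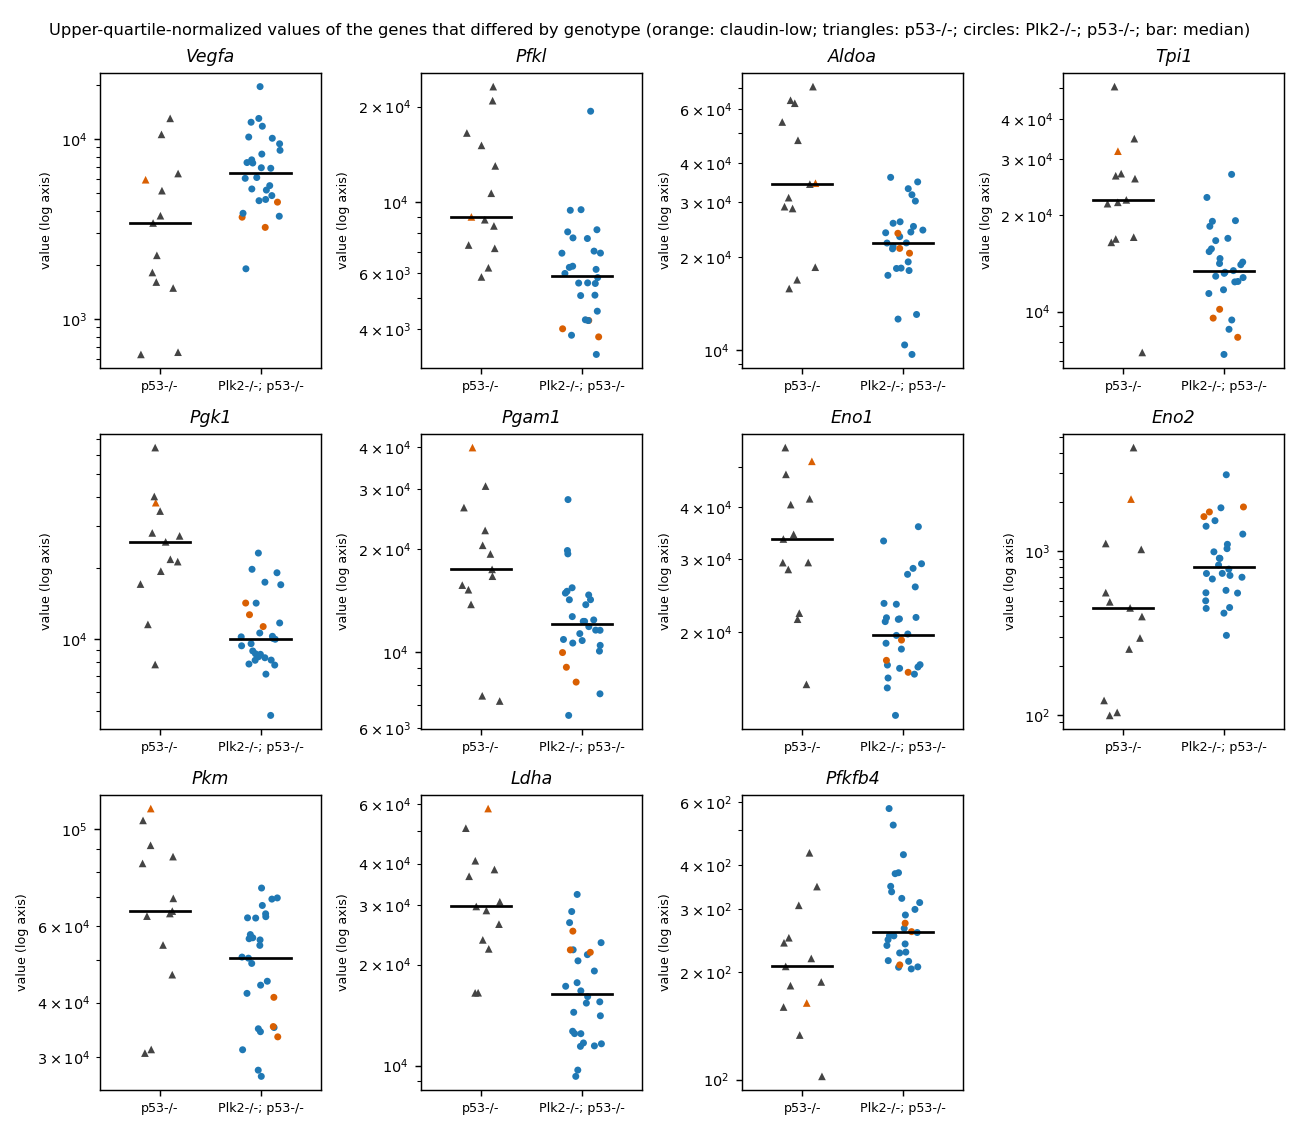
Signal on a log axis (y) in each tumor (points) for the 11 genes called between the genotypes, with a bar at the median of each group. In Pgk1 and Ldha most p53-/- points sit above the bar of the Plk2-/-; p53-/- tumors, and all 11 genes overlap between the groups.

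Of the other 8 glycolytic enzymes 1 rose and 7 did not pass. Gpi1, glucose phosphate isomerase, had a difference of -0.59 ± 0.26 (limma adjusted p = 0.0670) and came to -0.67 ± 0.26 (0.0422 in the same limma fit) without p53null-7435. Its highest value, 233547, was that of the p53-/- tumor p53null-2396R, 17.9-fold above the median of the others. No fit left that tumor out, so its weight in the Gpi1 difference was not tested. The hexokinases Hk1 and Hk2 stood at 0.15 ± 0.20 and 0.33 ± 0.35, and Ldhb, the other lactate dehydrogenase subunit, at -0.17 ± 0.40. Aldoc stood at -0.29 ± 0.75. Eno2, the neuronal-type enolase, rose, in contrast to Eno1. Its values were 306 to 2942 (median, 802) in Plk2-/-; p53-/- and 99.3 to 4314 (median, 451) in p53-/- tumors, so the highest tumor, p53null-10151, was p53-/-. The log2 difference of 0.90 ± 0.37 (limma adjusted p = 0.0489) became 0.72 ± 0.36 (adjusted p = 0.114) when p53null-7435 was left out. Eno2 passed in 6 of 13 alternatives, with limma adjusted p up to 0.782.

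Pfkfb4, which makes the activator of phosphofructokinase, was 204 to 575 (median, 259) against 102 to 432 (median, 208). In 6 of the 13 p53-/- tumors it lay below every Plk2-/-; p53-/- tumor, and it rose by 0.42 ± 0.16 (limma adjusted p = 0.0300). Its log2 difference was 0.31 with TMM factors and 0.29 after quantile normalization, with adjusted p of 0.105 and 0.127. Pfkfb3, the other PFKFB gene listed, stood at 0.24 ± 0.26.

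Among the secreted and pH-regulating targets only Vegfa was called. It was 1905 to 19546 (median, 6500) in Plk2-/-; p53-/- and 638 to 13028 (median, 3420) in p53-/- tumors. Of the 28 Plk2-/-; p53-/- tumors 26 exceeded the p53-/- median, and 5 p53-/- tumors fell below every Plk2-/-; p53-/- tumor. The log2 difference was 1.11 ± 0.32, with a 95% interval of 0.46 to 1.76 and a limma adjusted p of 0.00517. With only the 7 primary-numbered Plk2-/-; p53-/- tumors it was 0.85 and did not pass (limma adjusted p = 0.326), while it passed in the other 12 alternatives. Adm, the vessel-dilating peptide adrenomedullin, and Car9 had differences of 0.67 ± 0.52 and -0.96 ± 0.61 that did not pass.

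Hif1a was 1693 to 7971 (median, 2844) in Plk2-/-; p53-/- and 1457 to 6173 (median, 2779) in p53-/- tumors, a log2 difference of 0.07 ± 0.21. Its sign depended on scaling and on which tumors were used. Epas1 was 570 to 9049 (median, 1199) against 418 to 2220 (median, 1281), a difference of 0.38 ± 0.31. The glucose transporter Slc2a1 was 1296 to 14162 (median, 4567) against 1029 to 16718 (median, 4340), a difference of -0.38 ± 0.31. None of these 3 passed the test, with 95% intervals of -0.35 to 0.48, -0.24 to 0.996 and -1.01 to 0.26, respectively. Egln1, Egln3, the other HIF targets (Bnip3, Ankrd37, Ndrg1, P4ha1 and P4ha2), Slc2a3, the lactate exporter Slc16a3 and Pdk1, which holds pyruvate back from mitochondria, also did not pass, with differences from -0.51 (Ankrd37) to 0.30 (Egln3).

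Other genes of the pathways were taken from lists, and over all tested genes 24.3% rose and 15.3% fell. Of 7 HIF regulators Arnt, the partner of the alpha subunits, rose by 0.39, and Egln2, a prolyl hydroxylase, and Vhl, which targets HIF for destruction, fell by 0.62 and by 0.46. Of 25 other hypoxia targets tested, 2 rose and 3 fell. Nos2, nitric oxide synthase of inflammation, rose by 2.28 and the histone demethylase Kdm3a by 0.83, while Higd1a, Mif and Fam162a fell by 1.08, by 1.04 and by 0.80. Of 28 other glycolysis and pyruvate genes 4 rose and 7 fell. Pfkfb2, Hk3 and Pfkfb1 led the rises at 0.91, 0.90 and 0.77. The muscle-type enzymes Pgam2 and Eno3 fell by 1.10 and by 1.06, and Mpc1, a carrier of pyruvate into mitochondria, fell by 0.92.

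Markers of other cells also moved with genotype. In the skeletal muscle list 4 of 6 genes fell (Acta1, Ckm, Myh4 and Mylpf), with a summed signal of 21.4 to 3334 in Plk2-/-; p53-/- and 37.6 to 38589 in p53-/- tumors. Without the 3 tumors that summed above 1000 (p53null-2153L, p53null-7435 and PLK2null-7764), a choice made after seeing the data, the same 8 enzymes still fell, and Eno2 and Pfkfb4 no longer passed (limma adjusted p = 0.114 and 0.0610). In the neutrophil list 3 of 6 tested genes rose, with sums of 246 to 3128 against 128 to 3239, and 1 of 6 proliferation genes rose, Mki67 at 0.95. Of the epithelial list, with sums of 61.6 to 126158 against 33822 to 332261, none of 8 genes passed. Red blood cell genes fell in 2 of 5 tested, with sums of 491 to 351849 (median, 2458) against 3140 to 45104 (median, 11155). Adipocyte genes fell in 2 of 5, with sums of 227 to 124750 (median, 827) against 426 to 3797 (median, 1740). The highest sums of these lists were thus in Plk2-/-; p53-/- tumors, PLK2null-732 and PLK2null-743. The part of these cells in the differences above was not tested beyond the fit named.

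The count of enzymes that fell was 8 as deposited, 5 after quantile normalization and 5 when only the 7 Plk2-/-; p53-/- tumors numbered as primary tumors were set against the 13. Pgk1, Ldha, Pfkl and Eno1 passed in all 13 alternatives.

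The 4 claudin-low tumors were compared with the 37 others, with genotype as a covariate, to see how these genes differ in a class poor in epithelial junction genes. Both HIF alpha subunits were higher, as were Egln1, Ankrd37, the transporters Slc2a3 and Slc16a3, Eno2 and Ldha, and Aldoc was 100.4-fold lower. T11 did not share the rise of Epas1, and Slc16a3, Eno2 and Ldha did not pass when any one of the 4 was left out. In all, 9 of the 34 genes were called, 8 higher and 1 lower, or 26.5%, whereas 31.3% of all tested genes were called, 16.1% higher and 15.2% lower. The median log2 difference was 0.41 over the 34 genes and -0.01 over all tested genes. Vegfa and Slc2a1 did not pass, nor did 13 of the 16 glycolytic enzymes.

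Hif1a was 7971 in PLK2null-732, 7756 in PLK2null-733, 6021 in PLK2null-743 and 6173 in T11. In the other 37 tumors it ran from 1457 to 5567 (median, 2709), so that the groups did not overlap, which was so for 3.94% of all tested genes, 0.976% higher and 2.96% lower. The log2 difference was 1.35 ± 0.25 (limma adjusted p = 4.79e-05) and ran from 1.18 to 1.42 over 15 alternatives. Within the Plk2-/-; p53-/- tumors, 3 claudin-low against 25, an exact 2-sided permutation test gave p = 0.0006105, the smallest it can give.

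Epas1, the alpha subunit known from endothelial cells, was 9049 in PLK2null-732, 5959 in PLK2null-733 and 7160 in PLK2null-743 but 1059 in T11. The other 37 tumors ran from 418 to 3193 (median, 1194), with PLK2null-7763 the highest. The 3 Plk2-/-; p53-/- tumors were above all 37, and T11 lay below 24 of them. The log2 difference was 1.87 ± 0.39 (limma adjusted p = 0.000208). Epas1 made up 39.7 to 50.5% of the RNA per kb of both alpha subunits in those 3 tumors and 12.8% in T11.

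Egln1 was 4121, 3399, 3709 and 4971 in PLK2null-732, PLK2null-733, PLK2null-743 and T11, against 1226 to 8819 (median, 2237) in the others. It rose by 0.76 ± 0.26 (limma adjusted p = 0.0234), though p53null-10151 was higher than any claudin-low tumor. Ankrd37, an ankyrin repeat protein induced by HIF, was 1439, 1062, 989 and 1330 in the same order, against 46.4 to 1050 (median, 193). Only p53null-10151 and p53null-2153L reached above the lowest claudin-low tumor. It rose by 2.59 ± 0.63 on the log2 scale, 6.01-fold (limma adjusted p = 0.00149). The other HIF targets did not pass. Bnip3, which marks mitochondria for removal, differed by -0.0029 ± 0.49, and Ndrg1 and P4ha2 by 1.16 ± 0.61 and 0.98 ± 0.54.

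Slc2a3 was 662, 648, 875 and 692 in PLK2null-732, PLK2null-733, PLK2null-743 and T11, against 21.3 to 4161 (median, 139) in the others. Its difference was 2.30 ± 0.67 (limma adjusted p = 0.00775). The claudin-low values were close to each other, yet p53null-2331L and PLK2null-1971 exceeded them all. Slc16a3 was 3523, 2537, 2894 and 10153 in that order, against 130 to 5791 (median, 1153), a difference of 1.87 ± 0.74 (limma adjusted p = 0.0479). T11 was the highest of all 41 tumors. Slc2a1, at 5668, 3835, 6878 and 15570 against 1029 to 16718 (median, 4340), had a difference of 0.72 ± 0.48, with a 95% interval of -0.26 to 1.70, and did not pass.

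Aldoc was 55.9 in PLK2null-732, 25.2 in PLK2null-733, 31.1 in PLK2null-743 and 203 in T11. The other 37 tumors ran from 785 to 17526 (median, 6074), with no overlap. The log2 difference was -6.65 ± 0.55, 100.4-fold lower (limma adjusted p = 7.59e-13). Aldoc thereby made up 0.0680 to 0.326% of the aldolase RNA per kb in claudin-low tumors and 2.44 to 31.1% in the others, while Aldoa differed by 0.02 ± 0.30.

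Eno2 was 1743, 1632, 1870 and 2089 in PLK2null-732, PLK2null-733, PLK2null-743 and T11, against 99.3 to 4314 (median, 695), and rose by 1.43 ± 0.54 (limma adjusted p = 0.0386). Only 3 of the 37 others were above the lowest claudin-low tumor. Ldha was 25159, 22117, 21753 and 58351, against 9285 to 50999 (median, 17663), and rose by 0.65 ± 0.25 (limma adjusted p = 0.0462). In 15 of the 37 others it was above the lowest claudin-low tumor. Pgk1 was 14214, 11308, 12689 and 37720, against 4767 to 64449 (median, 10624), a difference of 0.39 ± 0.32 that did not pass. Vegfa was 3234, 3684, 4465 and 5946, against 638 to 19546 (median, 6054), a difference of -0.37 ± 0.51 with a 95% interval of -1.39 to 0.66. The 25 genes not called had log2 differences from -1.07 (Hk2) to 1.34 (Adm).

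**Figure D4:**
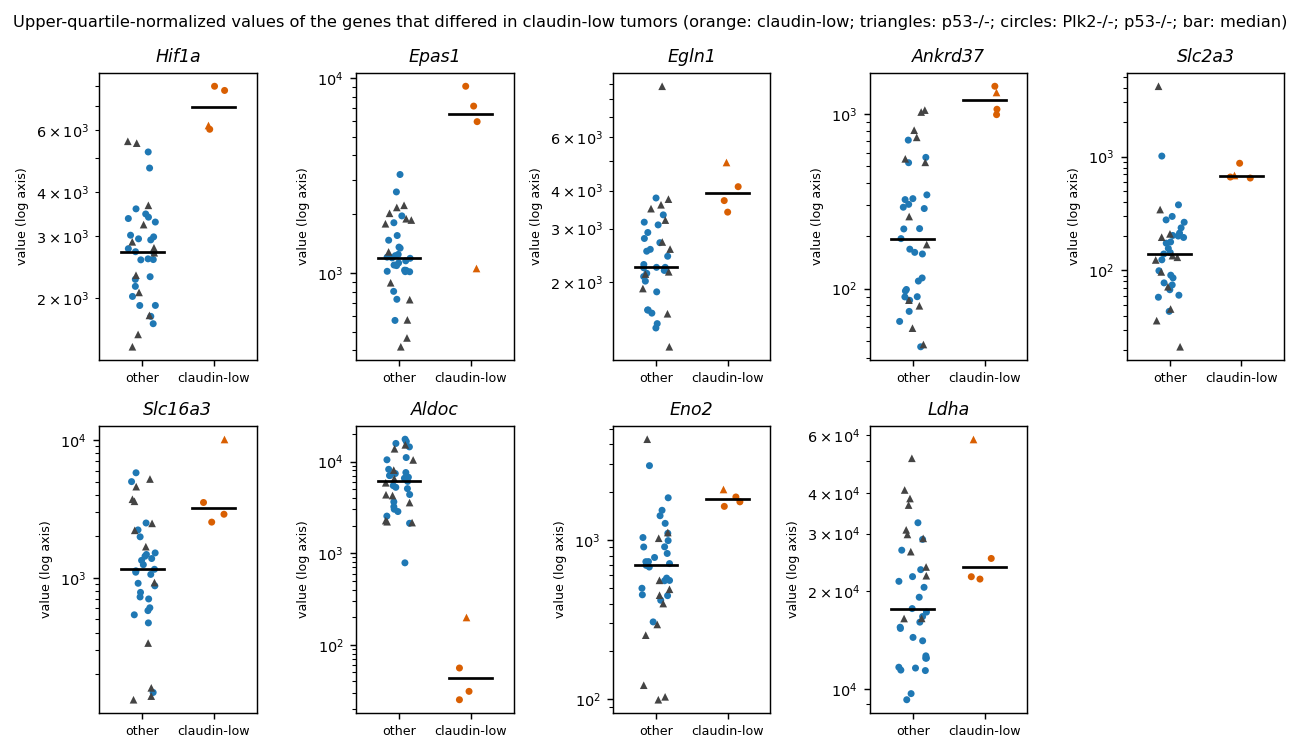
Signal on a log axis (y) in each of the 41 tumors (points) for the 9 genes called in the claudin-low comparison, split into claudin-low and other tumors, with a bar at the group median. Hif1a and Aldoc do not overlap between the groups, and in Epas1 T11 lies among the other tumors.

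Of the 9 calls, Hif1a, Epas1, Ankrd37, Slc2a3 and Aldoc passed in all 15 alternatives. Egln1 passed in 11, Eno2 in 9, Ldha in 6 and Slc16a3 in 5. Eno2, Ldha and Slc16a3 did not pass when any one of PLK2null-732, PLK2null-733, PLK2null-743 or T11 was left out, and Egln1 did not without PLK2null-732, PLK2null-743 or T11. Without T11 the log2 difference of Eno2 was 1.12 (limma adjusted p = 0.171), of Ldha 0.52 (0.178) and of Slc16a3 1.41 (0.210), whereas Hk2 and Hk1 passed at -1.67 and -0.92 (limma adjusted p = 0.0273 and 0.0319).

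T11 differed from the 3 Plk2-/-; p53-/- claudin-low tumors in several enzymes. Pgam1 was 39796 in T11 and 8167 to 9969 in the 3, Tpi1 31740 against 8304 to 10161, and Eno1 51600 against 15996 to 19133. Car9 was 1988.8 in T11 and 72.3 to 105 in the 3. These are values of a single tumor, and genotype and the series name of the title differ along with it.

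In the pathway lists, none of 7 HIF regulators rose in claudin-low tumors and 2 fell, where Arnt2 fell by 5.17 and Cited2 fell by 1.96. Of 25 other hypoxia targets 7 rose, led by Hmox1 (2.88), Angptl4 (2.53) and Nos2 (2.19), which act in heme breakdown, lipid handling and nitric oxide synthesis. In another 3, Car12 fell by 5.13, Tfrc fell by 2.04 and Zfp395 fell by 1.78. Of 28 other glycolysis and pyruvate genes Pdp1, which activates pyruvate dehydrogenase, rose by 0.81, and 7 fell. Of these Fbp2 fell by 5.06, Pdk2 fell by 1.43 and Pdha1, a subunit of pyruvate dehydrogenase, fell by 1.06. Fbp2 was only 1.13 to 26.5 in the claudin-low tumors. In PLK2null-743 it lay below the worth of 3 reads, so the size of its fall is uncertain.

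Cell markers moved with the class. Endothelial genes rose in 9 of 10 cases, pericyte genes in 5 of 6 and lymphatic endothelial genes in 4 of 5. Red blood cell genes rose in 5 of 5 tested, B cell genes in 6 of 6 and T cell genes in 3 of 6. All 8 epithelial genes fell. T11 lay far below the 3 Plk2-/-; p53-/- claudin-low tumors in several lists. Its pericyte sum was 9052 against 88851 to 105609, and its red blood cell sum 3635 against 94971 to 351849. Its B cell sum was 31.6 against 827 to 1093, and its T cell sum 39.8 against 1042 to 2036. In the other 37 tumors the medians were 9072, 2914, 34.4 and 201, respectively. The adipocyte sum was also low in T11, at 426 against 99138 to 124750 in the 3. The fibroblast sum went the other way, at 227169 in T11 against 15598 to 57309 in the 3. The endothelial sum was 189339 to 213652 in the 3 Plk2-/-; p53-/- tumors, 10338 in T11 and 2630 to 87436 in the others, with PLK2null-7763 the highest of these, as it was for Epas1. Epas1 was thus high in the tumors with a high endothelial sum and not in T11, while Hif1a was high in all 4. The epithelial sum was 61.6 to 359 in the 3 tumors, 33822 in T11 and 18513 to 332261 in the others. Krt8 was 11057 in T11 and 9.60 to 63.0 in the 3, and Krt18 was 22508 in T11 and 5.99 to 61.6 in the 3. These keratins made up nearly all of the T11 sum. The other epithelial genes of the list were low in T11, from Esrp1 at 6.49 to Epcam at 81.4. The T11 library therefore held epithelial keratin that the other claudin-low libraries lacked. Without PLK2null-7763 Epas1 and Hif1a still passed, and Slc16a3 did not (log2 difference 1.87, limma adjusted p = 0.0506). The part of endothelial and other cells in the differences of these genes was not tested.

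In 3 cases a single tumor was more than 2-fold above the next highest, a choice made after the values were seen. Car9, at chr4:43506966-43513729 of GRCm38, was 38830 in p53null-10151, 19.5-fold above the next tumor, T11, and 169-fold above the median of the other 40. Gpi1, at chr7:34201330-34230336, was 233547 in p53null-2396R, 10.4-fold above the next tumor and 17.9-fold above the median of the others. Slc2a3, at chr6:122727809-122801640, was 4161 in p53null-2331L, 4.11-fold above the next tumor, and made up 58.8% of the RNA per kb of both glucose transporters there.

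The 10 nearest genes with a mean signal of at least 10 were read beside each of them, 5 on either side. Around Car9 7 of the 10 were also highest in p53null-10151 of all 41 tumors, with a median of 5.74-fold over the median of the others, such as Ccdc107 at 5109. Around Gpi1 8 of the 10 were highest in p53null-2396R, with a median of 8.89-fold, such as Uba2 at 26760. Around Slc2a3 none of the 10 was highest in p53null-2331L, and the median was 0.98-fold. The Car9 and Gpi1 values thus came with high values of their neighbours on the chromosome, and the Slc2a3 value did not. The number of gene copies was not measured.

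**Figure D5:**
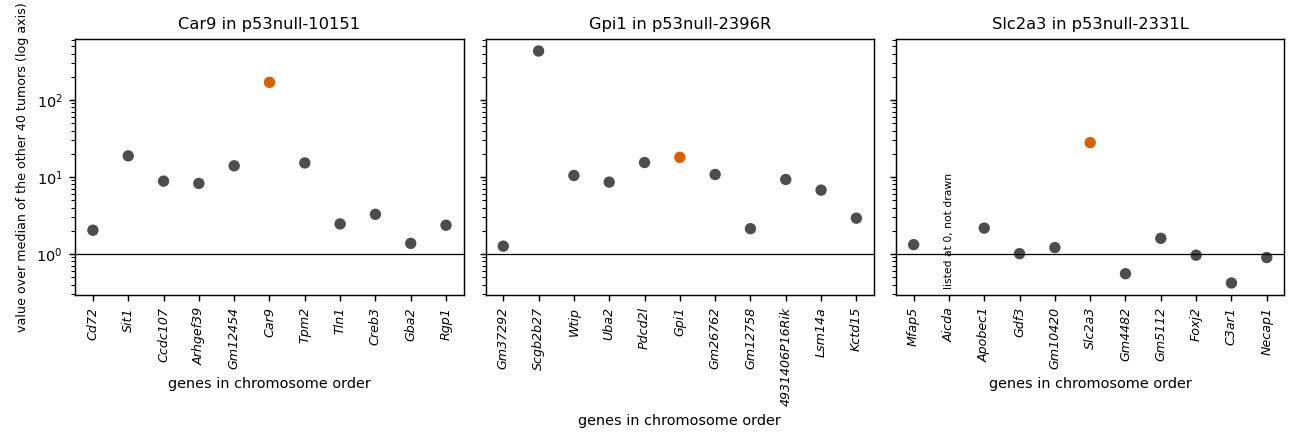
Fold of the signal over the median of the other 40 tumors (y, log axis) for 3 genes and their 10 nearest genes in chromosome order (x), each in the tumor where the gene is highest. Neighbours of Car9 and Gpi1 are raised with them, neighbours of Slc2a3 reach at most 2.16, and a gene listed at 0 is marked and not drawn.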

How the data were processed

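RNA of 41 tumors was extracted with Qiagen RNeasy kits, made into TruSeq mRNA libraries and read from both ends at 50 bases on HiSeq instruments. The submitters' processing notes name STAR 2.7.6a, Salmon 1.4.0, Picard 2.22.4, SAMtools and mm10. The deposited values are a linear signal that the authors made by dividing Salmon's estimated counts by the upper quartile of each tumor. The gene annotation and any filter of the table are not given in the sources used here. Between 77.9 and 80.5% of nonzero values lay within 0.1 of a whole number of reads, too few to recover counts, so no count model was used. The closest pair of tumors, PLK2null-7750 and PLK2null-1984, differed by a chi-square whose median over genes was 6.41 on values scaled to approximate reads, and no tumors were merged. That value does not tell whether tumors are related. If some are, the p-values, which treat all 41 as independent, are too small. The 3-read floor covers counting error only.

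Genotype was taken from the labels and the claudin-low class as described in the report. Tests used limma 3.58.1 in R 4.3.3 on log2(signal + 1), with no intensity trend, restricted to genes averaging 10 or more over the 41 tumors. Benjamini-Hochberg adjustment ran over all genes tested, with a threshold of 0.05. The claudin-low fit had genotype as a covariate. Permutation tests were 2-sided over tumors, exact over 3276 splits for 3 against 25 tumors and with 100000 resamples for 28 against 13. The tests were checked on simulated data. The remaining steps ran in Python 3.11.15 with scipy 1.17.1, numpy 2.4.6, matplotlib 3.10.9 and pandas 2.3.3. Positions and lengths came from GENCODE vM21 on GRCm38 and promoters from RefSeq on GRCm38.p6.

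The 34 genes and all lists were chosen with earlier results of these data known. Values are given in full for genes called in either comparison and for Hif1a, Epas1, Vegfa, Slc2a1, Ldha and Pgk1. From each pathway list the 3 largest called differences in each direction are named. Alternatives were other pseudocounts, filters, a variance trend, TMM and quantile scaling, other covariates and fewer tumors.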

Additional observations from a re-analysis of the deposited data

Results flagged for a closer look

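Among the 4 claudin-low tumors T11 stood apart from the other 3 by Dixon's test, which chance passes in about 1 group in 20, in 7 of the 34 genes (20.6%). It stood apart in the same way in 22.5% of all tested genes, so the share is no larger than the background. It was the high tumor in 6 of them, Car9 (1988.8), Pfkl (9001), Tpi1 (31740), Pgam1 (39796), Eno1 (51600) and Ldha (58351), and the low tumor in Pfkfb3 (1171). T11 is also the only p53-/- tumor of the 4, and its title carries the series name that theirs lack.

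The claudin-low log2 difference in Plk2-/-; p53-/- minus that in p53-/- tumors was 2.69 for Epas1 and -1.78 for Pgam1. These were the 2 of the 34 genes that passed a limma interaction, against 9.97% of all tested genes. The fit was chosen after seeing the data, and its p53-/- arm is T11 alone, which is assumed to vary like the other groups, so the values are given without a p.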

How the results depend on the processing

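The genotype call count over the 34 genes was 11 as reported, 6 after quantile normalization and 5 with only the 7 tumors numbered as primary, where the count over all genes was 2942 in place of 6802. It was 9 to 11 under the other alternatives, and all 11 called genes kept their sign in each of the 13. Hif1a changed sign between the genotypes with TMM factors (-0.042), the 7 primary tumors (-0.18), without p53null-7435 (-0.0154) and without the 3 tumors rich in skeletal muscle genes (-0.077), and never passed the test. Enzymes that fell numbered 5 to 9. In the claudin-low comparison the count was 9 as reported and 5 to 7 when one claudin-low tumor was left out, with 5 without PLK2null-732, 5 without PLK2null-743, 6 without PLK2null-733 and 7 without T11. The counts over all genes were 3878 to 5691 in these fits. Other alternatives gave 6 to 11 of the 34, and all 9 called genes kept their sign in each of the 15. The cause of these changes was not tested. No paired analysis was possible because replicate numbers were given in accession order and pair no tumors. Low fragment numbers limited none of the 34 genes, all of which lay above the floor in every tumor, whereas 4 claudin-low tumors limit that comparison.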
